A study of Oryctolagus cuniculus with 8 samples.

Results

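The genes of the proteasome were followed in the retinas of rabbits kept on 4 diets. Members were the protein-coding genes whose symbol begins with PSMA, PSMB, PSMC, PSMD, PSME, PSMF or PSMG followed by a digit. Of 25666 genes in the deposited table, 19293 were protein-coding and 40 of these matched the name. PSMC3IP, a cofactor of meiotic recombination that shares only the start of its name, was set apart, which left 39 proteasome genes. A gene was tested if it reached 1 FPKM (fragments per kilobase of gene, scaled for sequencing depth) in at least 2 retinas, and 35 of the 39 proteasome genes, among 12204 protein-coding genes in all, did so. The 4 below this limit were PSMB8, PSMB9, PSMB11 and PSMA8.

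RNA was sequenced from 8 retinas of wild-type male Chinchilla rabbits about 10 months old, 2 retinas per diet, after 6 months of feeding. The normal diet (ND) was standard chow, the high-fat diet (HFD) was chow with 10% lard and 0.5% cholesterol, the high-sucrose diet (HSD) was chow with 40% sucrose, and the combined diet (HFSD) joined the lard and cholesterol of HFD with 35% sucrose. The labels do not say whether the retinas of a group came from different animals, so the errors and p-values below measure the spread between 2 retinas, which may be partly technical. The study asked how the diets, which in these animals served as a model of age-related macular degeneration, alter the retina.

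The proteasome degrades proteins that have been tagged with ubiquitin. Its barrel, the 20S core, is built from outer alpha rings and inner beta rings, and beta subunits carry the peptide-cutting sites. The 19S cap, made of a base with a ring of ATPases and a lid, binds the ubiquitin chain, removes it and unfolds the substrate. In cells exposed to interferon the cutting subunits PSMB5, PSMB6 and PSMB7 can be replaced by PSMB8, PSMB9 and PSMB10 to give the immunoproteasome, which favours peptides for antigen presentation. In the retina, photoreceptors renew their outer segments continually.

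Some genes of the complex were not analysed here because no row carried their symbol. Under the name rule these were PSMA2, PSMA5 and PSMA7 of the alpha ring, PSMC1 and PSMC5 of the ATPase ring, the chaperones PSMD9 and PSMD10, and the activators PSME2 and PSME4. The cap subunits ADRM1 and SEM1, which lie outside the name rule, had no row either. Counted within the name rule, what could be followed was 4 of the 8 alpha genes, all 7 constitutive beta genes, 1 of the 4 immuno- and thymoproteasome genes and 4 of 6 ATPases. To these came all 3 other base subunits, all 8 lid subunits, 1 of 3 base chaperones, all 4 core chaperones, 2 of 4 activators and the inhibitor PSMF1. The core chaperone POMP lies outside the rule and is given with the other genes of the pathway. PSMA8, the alpha subunit of germ cells, was listed at 0 in all 8 retinas.

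The summed fragments per retina ran from 15223356 to 22293225. Rod genes summed to between 32052 and 45506 FPKM, so the markers of retina were present. Their sum was highest in HFD replicate 1, at 34112 to 45506 FPKM without sucrose and 32052 to 36461 with it, and 5 of the 6 rod genes were lower with sucrose (median −0.19, log2(FPKM + 1) scale). Several retinas stood apart for reasons other than the proteasome. Skeletal muscle genes summed to 416 FPKM in HSD replicate 2 and to at most 1.01 elsewhere. Genes of the pigment epithelium other than RLBP1, which Müller glia share, summed to 312 and 235 FPKM in ND, 74.8 and 42.7 in HFD, and 20.5 to 64.8 with sucrose. They were thus lower in all 3 diets than in ND, and 7 of the 7 tested genes of the full list were lower in HFD (median −1.90, log2(FPKM + 1) scale). Müller glia genes summed to between 2562 and 3741 FPKM without sucrose against 1805 to 1928 with it, and all 6 were lower with sucrose by median −0.38, from −1.07 for GLUL to −0.0097 for SLC1A3. Microglia and leukocyte genes summed to between 19.5 and 35.7 FPKM without sucrose against 11.7 to 18.5 with it. The part of these shifts in the values below was not tested, and in whole retinas fewer cells of a type and less RNA per cell cannot be told apart.

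The proteasome genes were expressed throughout, at means over the 8 retinas from 8.33 FPKM (PSMB10) to 171 FPKM (PSMB4), with a median of 44.3 FPKM. The beta ring was the highest group, with a median of 100.4 FPKM. PSMB4 (171 FPKM), a structural subunit, and PSMB5 (162 FPKM), which carries the chymotrypsin-like site, led it, and PSMB2 was the lowest at 22.3 FPKM, a 7.65-fold range within a ring whose subunits are built in equal numbers. Between them lay PSMB1 (126 FPKM), PSMB6 (100.4 FPKM), PSMB3 (98.5 FPKM) and PSMB7 (38.5 FPKM). The alpha ring, which gates entry to the core, ran from PSMA1 at 21.0 FPKM over PSMA6 at 22.2 FPKM and PSMA4 at 38.7 FPKM to PSMA3 at 104 FPKM. FPKM divides fragments by gene length, and the recovered lengths differed widely. In ND replicate 1 PSMB2 had 1154 fragments over 2963 bases, PSMB3 1150 over 618 and PSMB4 2796 over 902. In the alpha ring PSMA1 had 1928 over 4991 there and PSMA3 2044 over 1065. How far length sets these ranges was not tested. Reads that mapped to several places had been discarded by the authors, and how far this lowers single subunits was not tested.

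In the cap, the ATPases that unfold substrates lay between 60.4 FPKM (PSMC4) and 118 FPKM (PSMC2). The other base subunits lay between 36.8 FPKM (PSMD1) and 59.9 FPKM (PSMD2), both large scaffold proteins. The lid spanned 6.78-fold, from PSMD14 at 15.6 FPKM, the enzyme that cuts ubiquitin off the substrate, to PSMD6 at 106 FPKM. In ND replicate 1 PSMD14 had 948 fragments over 3079 bases and PSMD6 2162 over 1170. The other lid subunits were PSMD3 at 75.2 FPKM, PSMD7 at 45.2 FPKM, PSMD8 at 44.0 FPKM, PSMD11 at 32.6 FPKM, PSMD13 at 18.6 FPKM and, between these, PSMD12. Among the core chaperones PSMG1 was highest (53.3 FPKM) and PSMG2, its partner, lowest (24.2 FPKM). The base chaperone PSMD5 reached 13.7 FPKM. Of the activators, the nuclear PSME3 lay at 84.8 FPKM and the interferon-inducible PSME1 at 44.3 FPKM.

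**Figure D1:**
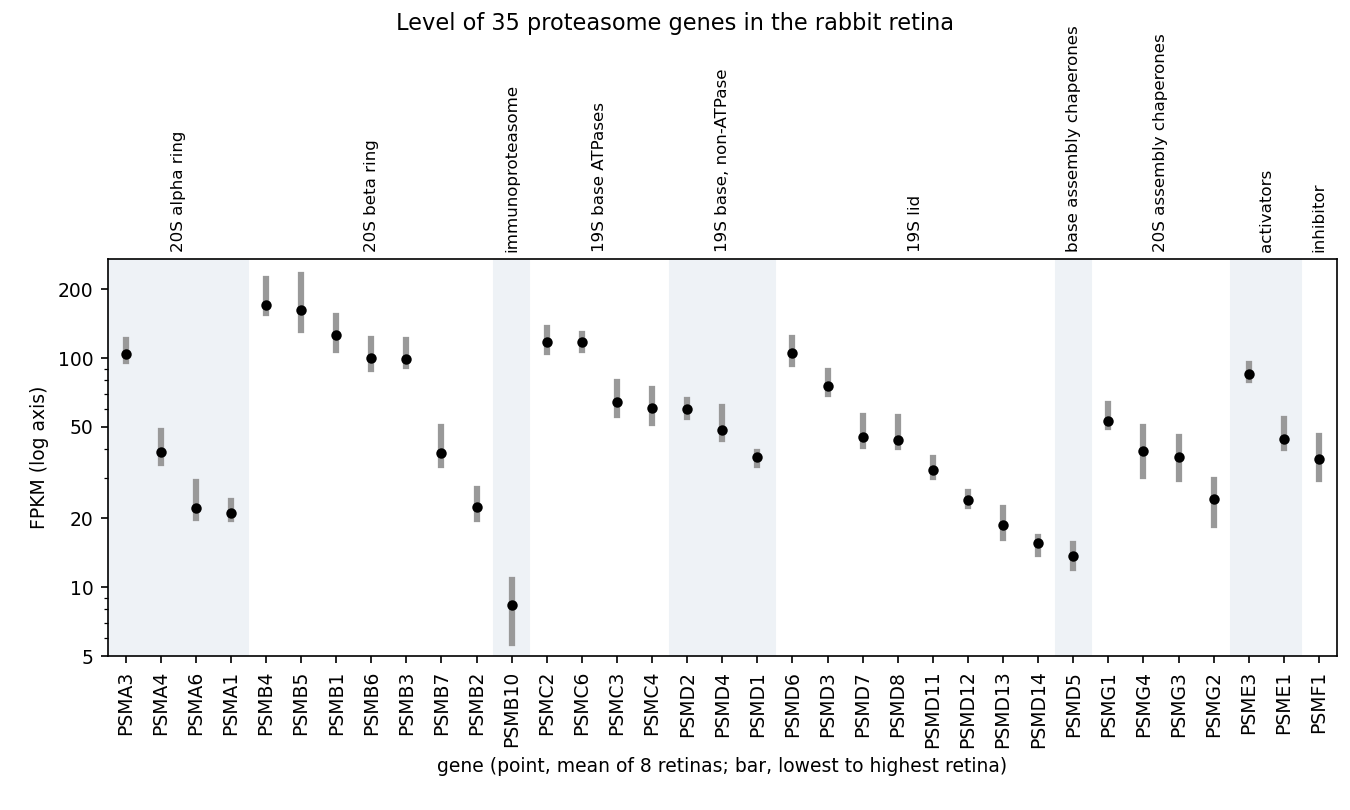
Mean FPKM over the 8 retinas (points, log axis) and lowest to highest retina (bars) for each of the 35 proteasome genes, grouped by subcomplex. PSMB4 (171 FPKM) and PSMB5 (162 FPKM) stood highest and PSMB10 (8.33 FPKM) lowest, and the bars were short beside the distance between genes.

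The levels in FPKM, which depend on gene length, differed far more between subunits than between retinas. The highest retina exceeded the lowest by a median of 1.34-fold per gene and by at most 1.88-fold (PSMB10). For 29 of the 35 genes, 82.9%, the retinas lay within 1.5-fold of each other, against 46.4% of all genes tested and 61.6% of genes in the same range of levels. The median SD over the 8 retinas was 0.14 on the log2(FPKM + 1) scale for the proteasome genes. It was 0.19 for all genes tested and 0.16 for genes in the same range of levels. The 6 genes beyond 1.5-fold were PSMB10, PSMB5, PSMG4, PSMG2, PSMF1 and PSMG3. No test was made of this contrast, and the share that comes from the members' length and level was not separated further.

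What spread there was lay mostly in 1 retina. HFD replicate 1 was the highest of the 8 retinas for 30 of the 35 genes, while 22.3% of all genes tested were highest there. Summed over the 35 genes, FPKM was 2501 in HFD replicate 1 and between 1992 and 2157 in the other retinas. The genes lay a median of 0.26 above their own means there on the log2(FPKM + 1) scale, and between −0.08 and 0.02 in the other 7 retinas. PSMB5 stood furthest out, with 230.1 FPKM in HFD replicate 1 and 132 to 171 FPKM elsewhere. PSMF1, PSMG4, PSMC6, PSMA3 and PSMD1 were not highest in this retina.

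**Figure D2:**
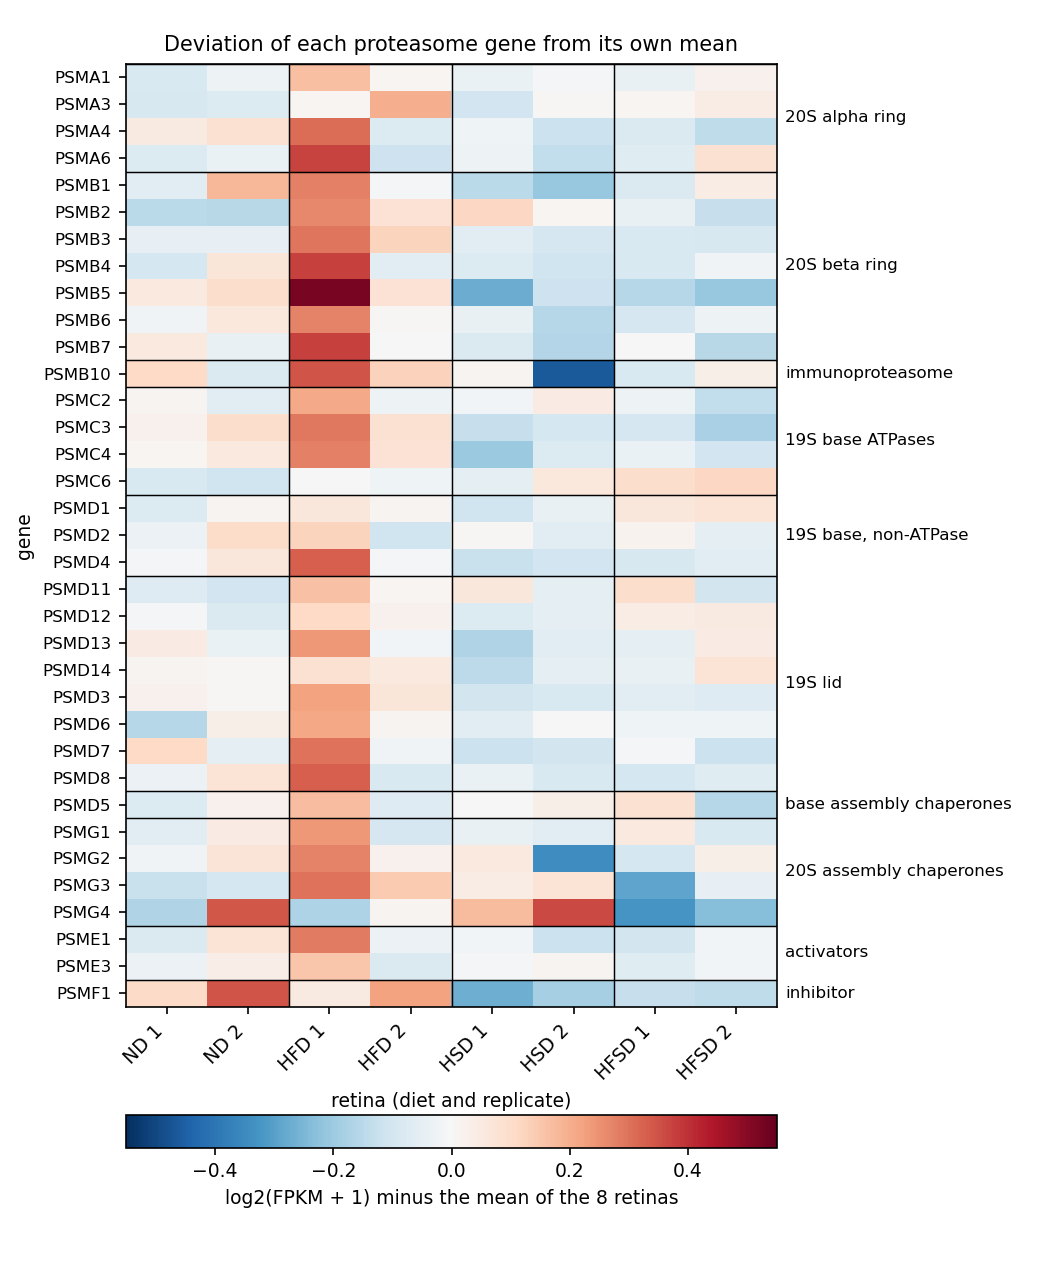
Deviation of each of the 35 genes (rows, by subcomplex) in each retina (columns) from its own mean on the log2(FPKM + 1) scale, red above and blue below. The column of HFD replicate 1 is red for nearly all genes (median 0.26), and PSMF1 in the last row is red in the 4 retinas without sucrose and blue in the 4 with it.

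HFD replicate 1 also differed from the others in all genes. Its FPKM summed to 653354 over all rows, against 564389 to 611233 elsewhere, so that the proteasome genes held 0.383% of that sum there and between 0.353% and 0.369% elsewhere. Of 3 equal groups of the 12204 genes by length, the 4068 shortest lay a median of 0.13 above their means in this retina and the 4068 longest 0.09 below. Of the proteasome genes, the 14 that fell among the shortest lay 0.28 above their means, the 12 of middle length 0.28 and the 9 among the longest 0.17, and the part of length in these values was not tested. With FPKM scaled to the same sum in every retina, an alternative chosen after this was seen, HFD replicate 1 was highest for 16 of the 35 genes, with 8.89% of all genes tested highest there, and the median deviation was 0.11 against −0.12 for all genes. Whether RNA quality or library preparation differed in this retina was not tested.

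**Figure D3:**
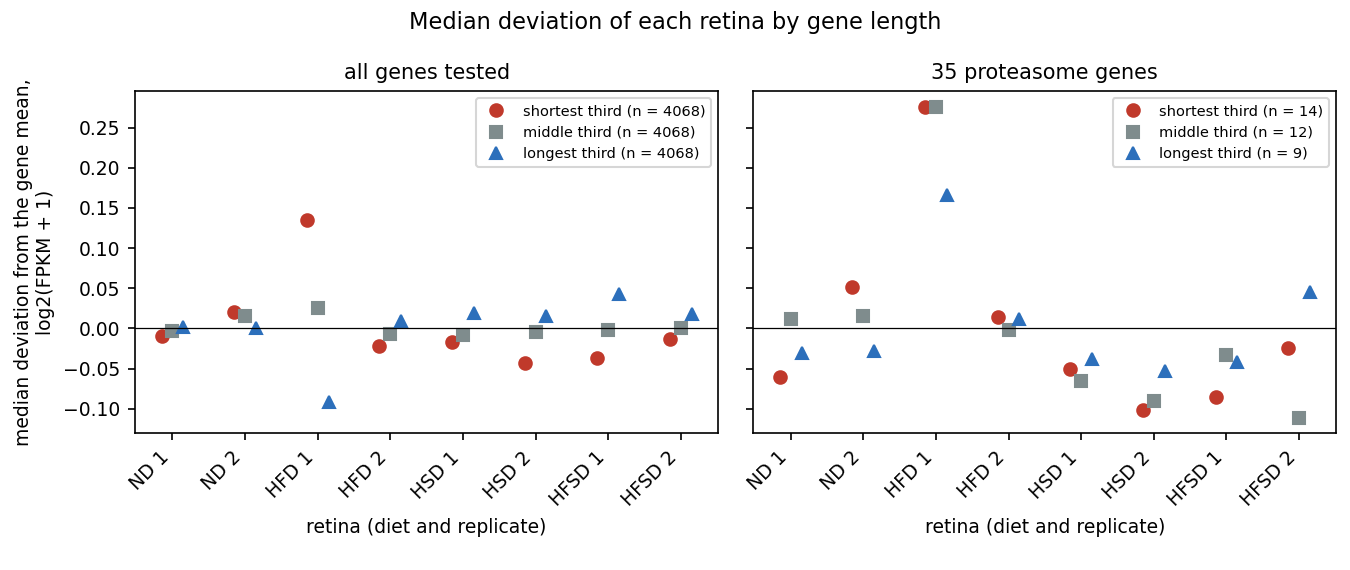
Median deviation of each retina from the gene means, log2(FPKM + 1), for short, middle and long genes (3 equal groups of the tested genes), over all genes tested (left) and over the 35 proteasome genes (right). In HFD replicate 1 the 3 length groups of all genes fan out from 0.13 to −0.09, whereas all 3 groups of proteasome genes lie above 0.

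High-fat feeding was compared with the normal diet first. No proteasome gene passed limma's adjusted p of 0.05 in HFD against ND, where 0.00819% of the genes tested did, and none passed with limma's voom on recovered fragments. Before adjustment 3 genes had a p under 0.05, all higher in HFD, beside 1.8% of all genes in that direction. Of the 35 differences 32 were upward, beside 51.2% of all genes, and 3 downward, with a median of 0.12 on the log2(FPKM + 1) scale against 0.01 for all genes tested. With FPKM scaled to equal sums 30 were higher and 5 lower, with a median of 0.07 against −0.05 for all genes. This direction rested on HFD replicate 1. Without it, 16 genes were higher and 19 lower, and the median was −0.0036, while without HFD replicate 2 it was 0.25.

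The 3 genes were PSMG3, PSMB2 and PSMB3. PSMG3, a chaperone that helps place the alpha subunits, had 33.5 and 34.1 FPKM in ND and 45.2 and 40.5 FPKM in HFD, so that both HFD retinas lay above both ND retinas. Its difference was 0.33 ± 0.12 (s.e.; limma, adjusted p = 0.998). PSMB2, a structural beta subunit, had 19.9 FPKM in either ND retina and 26.8 and 23.5 FPKM in HFD, again without overlap (0.32 ± 0.11, adjusted p = 0.998). The neighbouring beta subunit PSMB3 stood at 95.1 and 95.2 FPKM in ND and 120 and 107 FPKM in HFD (0.25 ± 0.10, adjusted p = 0.998). PSMB5 followed at 0.23 ± 0.16. Without HFD replicate 1 the differences of PSMG3, PSMB2, PSMB3 and PSMB5 were 0.25, 0.23, 0.17 and 0.0041. In all, the HFD retinas lay wholly above the ND retinas for 13 genes and wholly below for 0, beside 12.5% and 13.3% of all genes. Without HFD replicate 1 the counts were 13 above and 6 below, beside 30% and 31.6% of all genes. The largest differences downward were −0.16 ± 0.18 for PSMG4, a core chaperone, and −0.09 ± 0.12 for PSMF1.

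High-sucrose feeding gave differences mostly in the other direction. In HSD against ND, 0 genes passed limma's adjusted p of 0.05 (0.0574% of genes tested), 0 passed with voom, and 1 had an unadjusted p under 0.05 and was lower (4.51% of genes tested). Of the 35 genes, 11 were higher and 24 lower, beside 50.5% of all genes lower, with a median of −0.07 against −0.0018 for all genes tested. The split was 14 higher and 21 lower with voom, and 16 and 19 at equal FPKM sums. The median was −0.03 without HSD replicate 2, the retina with muscle transcripts, and −0.03 (16 higher and 19 lower) without ND replicate 2. The single gene was PSMF1, which encodes PI31, a protein that binds the core and inhibits it in vitro and also helps proteasomes move along axons. PSMF1 had 38.7 and 45.9 FPKM in ND against 29.6 and 31.5 FPKM in HSD. Both HSD retinas lay below both ND retinas (−0.45 ± 0.12, adjusted p = 0.441), the largest difference of any member in this comparison.

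Of the catalytic subunits in HSD, PSMB5 had 166 and 171 FPKM in ND and 132 and 148 FPKM in HSD (−0.27 ± 0.16, adjusted p = 0.770). PSMB6, with the caspase-like site, lay 0.12 ± 0.12 lower and PSMB7, with the trypsin-like site, 0.13 ± 0.14 lower. All 3 had both HSD retinas below both ND retinas, yet none of these differences exceeded 2 standard errors. Upward, PSMB2 led at 0.21 ± 0.11 and PSMG4 followed at 0.18 ± 0.18. The HSD retinas lay wholly below ND for 15 genes and wholly above for 4, beside 19.7% and 19.3% of all genes. Of those 15, 5 were beta subunits and 5 lid subunits. These counts depended on scaling, with 6 below and 8 above at equal FPKM sums, beside 14.2% and 25.7% of all genes.

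The combined diet was compared with the same 2 ND retinas. In HFSD against ND, 0 genes passed limma's adjusted p of 0.05 (0.0164% of genes tested), 0 passed with voom, and 1, again PSMF1, had an unadjusted p under 0.05 and was lower (4.37%). There were 10 genes higher and 25 lower, beside 50.8% of all genes lower, with a median of −0.05 against −0.0040 for all genes tested. At equal FPKM sums the split was 17 higher and 18 lower. The median was −0.0099, with 16 higher and 19 lower, without ND replicate 2 and −0.02 without HFSD replicate 1. PSMF1 measured 32.8 and 32.5 FPKM in HFSD, below both ND retinas (−0.36 ± 0.12, adjusted p = 0.557). At equal FPKM sums its difference was −0.31 without an unadjusted limma p under 0.05, and 1 base ATPase had such a p instead. PSMG4 had the largest difference, with 30.6 and 32.7 FPKM in HFSD and 34.3 and 49.2 FPKM in ND (−0.37 ± 0.18, adjusted p = 0.653), and its ND retinas differed from each other by more than that.

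PSMC6, an ATPase of the base, differed most in the upward direction. It had 110.4 and 109 FPKM in ND, 117 and 115 FPKM in HFD, 113 and 122 FPKM in HSD and 125 and 127 FPKM in HFSD, so that every diet lay above both ND retinas. This held for HSD and HFSD at equal FPKM sums, while the HFD retinas overlapped with ND. The difference in HFSD was 0.20 ± 0.10 (limma, adjusted p = 0.667), and that of PSMA3, an alpha subunit, 0.11 ± 0.11. Over all members the HFSD retinas lay wholly above ND for 5 genes and wholly below for 11, beside 21.6% and 20.6% of all genes. At equal FPKM sums these counts were 8 and 7, beside 26.6% and 15.8%.

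No member changed past the fold limits of the study's methods, which set the mean FPKM plus 1 of a diet over that of ND. Folds ran from 0.880 (PSMG4) to 1.26 (PSMG3) in HFD, from 0.729 (PSMF1) to 1.16 (PSMB2) in HSD and from 0.764 (PSMG4) to 1.15 (PSMC6) in HFSD. Of all genes tested, 2.55%, 5.3% and 5.06% passed these limits in HFD, HSD and HFSD.

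The 4 sucrose-fed retinas were then set against the 4 others. By design, this contrast and that of fat have equal errors, smaller than those of single diets. Again 0 genes passed limma's adjusted p of 0.05, beside 0.344% of genes tested, and 0 passed with voom. Unadjusted p was under 0.05 for 4 genes, PSMF1, PSMB5, PSMC3 and PSMC4, all lower with sucrose, beside 9.16% of all genes in that direction. Of the 35 genes 2 were higher, PSMC6 by 0.11 and PSMD11 by 0.0024, and 33 lower, beside 51.3% of all genes lower, with a median of −0.12 against −0.0073 for all genes tested. The split was 11 higher and 24 lower without HFD replicate 1 (median −0.06), 3 and 32 without HFD replicate 2 (median −0.19), 10 and 25 with voom (median −0.08) and 15 and 20 at equal FPKM sums (median −0.04, with all genes at 0.07). The gap between the median of the members and that of all genes was −0.11 as measured, −0.12 with voom, −0.10 at equal FPKM sums and −0.06 without HFD replicate 1.

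PSMF1 gave the smallest p. It had 38.7 and 45.9 FPKM in ND, 37.2 and 42.0 FPKM in HFD, 29.6 and 31.5 FPKM in HSD, and 32.8 and 32.5 FPKM in HFSD. The 4 sucrose-fed retinas, at 31.6 ± 1.43 FPKM (s.d., n = 4), all lay below the 4 others, at 41.0 ± 3.86 FPKM. The difference was −0.36 ± 0.09 (limma, adjusted p = 0.124), and over the alternatives the adjusted p ran from 0.082 to 0.348. Unlike most members, PSMF1 was not high in HFD replicate 1, its lowest retina without sucrose. Its difference leaving out each retina in turn stayed between −0.42 and −0.30. At equal FPKM sums the difference was −0.28 (adjusted p = 0.201), and the groups then overlapped.

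PSMB5 had the largest difference. It had 166 and 171 FPKM in ND, 230.1 and 169 FPKM in HFD, 132 and 148 FPKM in HSD and 143 and 138 FPKM in HFSD. All 4 sucrose-fed retinas (140.3 ± 6.66 FPKM) lay below all others (184 ± 30.8 FPKM), which held the outlying HFD replicate 1. The difference was −0.38 ± 0.11 (limma, adjusted p = 0.169, and 0.092 to 0.412 over the alternatives), and −0.26 when 1 retina was left out at its weakest. At equal FPKM sums it was −0.29 (adjusted p = 0.164), and the groups remained apart. Without HFD replicate 1 PSMF1 had the larger difference, −0.40 against −0.26 for PSMB5.

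PSMC3 and PSMC4 are ATPases of the base ring. PSMC3 had 64.8 and 68.2 FPKM in ND, 78.3 and 67.5 FPKM in HFD, 58.3 and 59.6 FPKM in HSD and 59.7 and 56.3 FPKM in HFSD. Its groups did not overlap and differed by −0.25 ± 0.08 (limma, adjusted p = 0.184). PSMC4 had 60.6 and 62.5 FPKM in ND, 73.1 and 63.7 FPKM in HFD, 52.1 and 57.1 FPKM in HSD and 58.6 and 55.9 FPKM in HFSD, also without overlap (−0.21 ± 0.08, adjusted p = 0.232). PSMC6, in the same ring, was higher with sucrose by 0.11 ± 0.07 (adjusted p = 0.438), and PSMC2 overlapped between the groups.

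In all, 8 genes were lower in every sucrose-fed retina than in any other retina, 22.9% of the members beside 6.48% of all genes, and 0 were higher in every one, beside 6.39%. Besides the 4 above these were PSMB6, PSMB3, PSMD3, a scaffold of the lid, and PSMD4, a receptor for ubiquitin chains. Their differences lay between −0.19 (PSMD4) and −0.16 (PSMB6), with adjusted p from 0.287 to 0.370. At equal FPKM sums only PSMC3, PSMB5 and PSMD4 were (3.74% of all genes), and PSMC6 was then higher in every sucrose-fed retina (9.41% of all genes). By subcomplex, the beta ring had the largest median difference with sucrose among groups of more than 1 gene, −0.16, with all 7 genes lower. The 4 ATPases had a median of −0.14, the 8 lid subunits −0.10, the 4 core chaperones −0.09 and the 4 alpha subunits −0.05. Without HFD replicate 1 the medians were −0.10 for the beta ring (6 of 7 lower), −0.09 for the ATPases, −0.05 for the lid, −0.06 for the core chaperones and −0.03 for the alpha ring (2 of 4 lower). With FPKM scaled to equal sums the beta ring was at −0.08 (6 of 7 lower), the ATPases at −0.06, the lid at −0.02 and the core chaperones at −0.0072, and the alpha ring was at 0.03 with 3 of 4 higher. The 3 other base subunits had a median of −0.04, which was 0.0040 without HFD replicate 1 and 0.04 at equal FPKM sums, with 2 of 3 higher in both. For the 2 activators the values were −0.08, −0.01 and −0.0011. None of these groups held a gene that passed the adjusted threshold, and no test compared the groups. The sums of Müller glia genes and of microglia and leukocyte genes given above were also lower with sucrose, 5 of 6 rod genes were lower, and those of the pigment epithelium were lower in HFD as well.

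**Figure D4:**
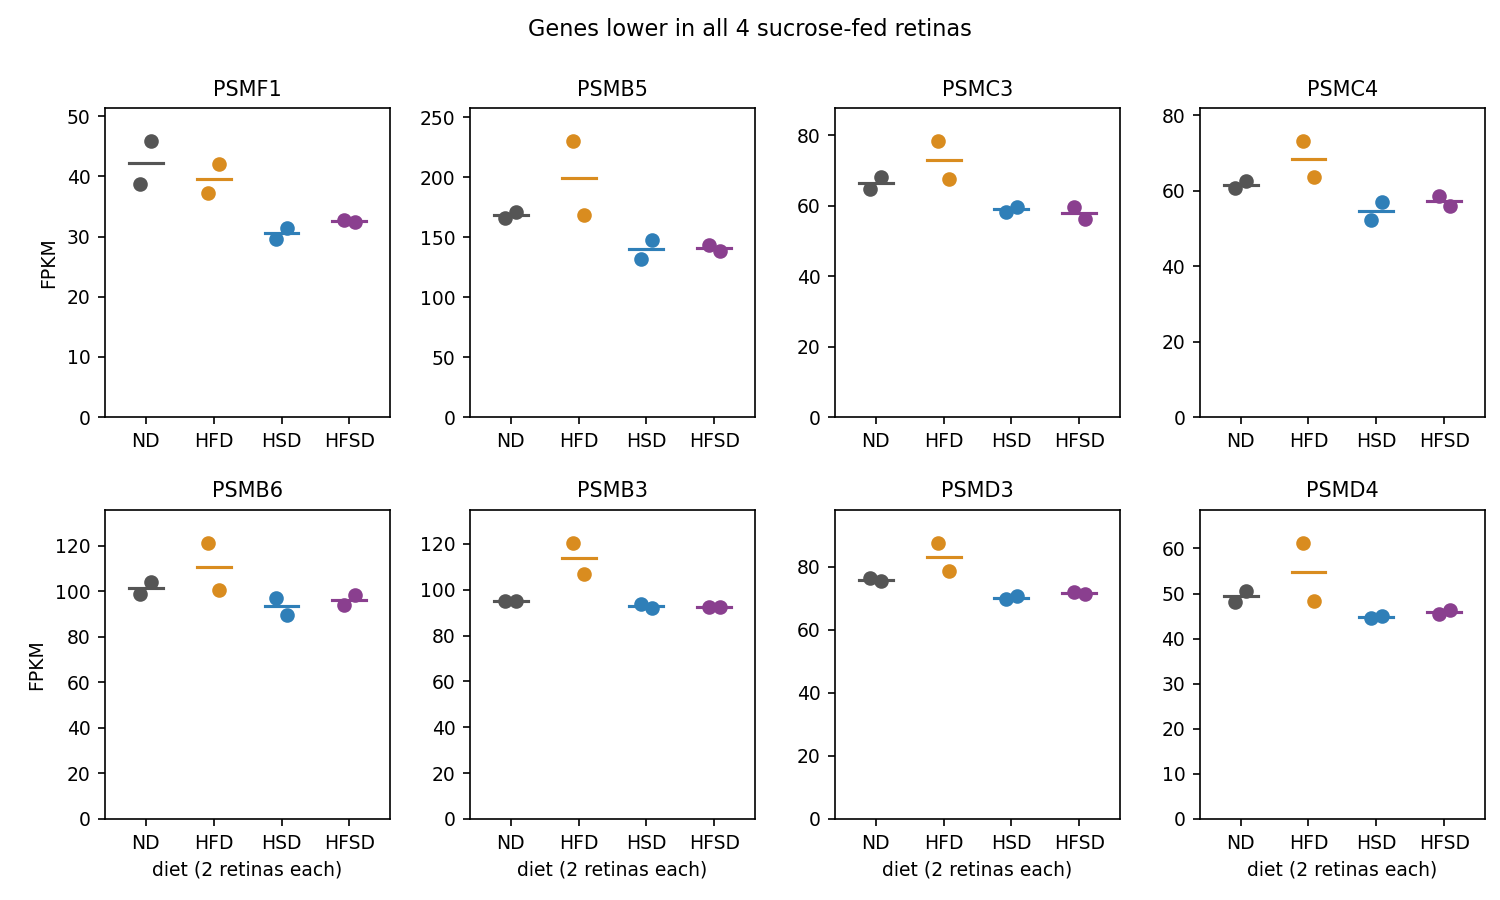
FPKM in each retina (points, linear axes from 0) and diet means (lines) for the 8 genes that were lower in all 4 sucrose-fed retinas. For PSMF1 the sucrose-fed retinas lie between 29.6 and 32.8 FPKM and the others between 37.2 and 45.9 FPKM, and for the other 7 genes HFD replicate 1 is the highest point.

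The 4 fat-fed retinas were set against the 4 others in the same way. In the fat diets against the diets without fat, 0 genes passed limma's adjusted p of 0.05 (0.00819% of genes tested), 0 passed with voom, and 1 had an unadjusted p under 0.05 and was lower (2%). That gene was PSMG4, lower with fat, with 34.2 and 39.0 FPKM in HFD and 30.6 and 32.7 FPKM in HFSD against 34.3 and 49.2 FPKM in ND and 43.7 and 49.9 FPKM in HSD. Its groups overlapped (−0.36 ± 0.12, adjusted p = 0.9996). There were 32 genes higher with fat, beside 52.6% of all genes, and 3 lower, with a median of 0.09 against 0.0072 for all genes, and 23 and 12 without HFD replicate 1 (median 0.02), 33 and 2 without HFD replicate 2 (median 0.13) or 28 and 7 at equal FPKM sums. In all 4 fat-fed retinas PSMD1, PSMA3 and PSMD12 were higher than in any other, beside 0.68% of all genes, by 0.11, 0.13 and 0.11, each less than 2 standard errors, and 0 were so at equal FPKM sums. None was lower in all 4, beside 0.664%. The largest upward differences were 0.21 ± 0.13 for PSMB10 and 0.14 ± 0.12 for PSMA6, and PSMD2 followed PSMG4 downward at −0.01 ± 0.08.

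A departure from additivity was tested as the interaction of fat and sucrose. No gene passed limma's adjusted p of 0.05, where 0.00819% of genes tested did, 0 passed with voom, and 2 had an unadjusted p under 0.05, both negative, beside 1.97% of all genes. They were PSMG3 (−0.56 ± 0.17) and PSMB2 (−0.47 ± 0.16), both at an adjusted p of 0.999. PSMG3 had 37.6 and 38.6 FPKM in HSD but 29.7 and 35.4 FPKM in HFSD, so each diet alone lay above ND and the combination did not. PSMB2 had 24.1 and 22.4 FPKM in HSD and 21.5 and 20.2 FPKM in HFSD, closer to ND than either diet alone. The largest positive values were 0.18 ± 0.17 for PSMF1 and 0.08 ± 0.20 for PSMB1. Over the members 28 values were below 0, beside 48.1% of all genes, and the median was −0.10, or 0.04 without HFD replicate 1 and −0.22 without HFD replicate 2. At equal FPKM sums 24 were below 0.

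The interferon-inducible subunits were scarce. PSMB8 ran from 0.541 to 1.05 FPKM and reached 1 FPKM only in HFD replicate 2, where it rested on 36 fragments, which put it just outside the limit for testing. PSMB9 ran from 0.0509 to 0.473 FPKM on 3 to 26 fragments. PSMB11, the subunit of the thymus, had at most 2 fragments. Set against the subunits they replace, PSMB8 amounted to 0.337% to 0.623% of PSMB5 and PSMB9 to 0.0517% to 0.472% of PSMB6.

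PSMB10 was the exception, at 16.7% to 24.6% of PSMB7 in every retina. It had 8.96 and 7.73 FPKM in ND, 10.7 and 9.08 FPKM in HFD, 8.31 and 5.70 FPKM in HSD and 7.70 and 8.43 FPKM in HFSD, on 51 to 111 fragments. Its lowest value was in HSD replicate 2, the retina with muscle transcripts. The sucrose-fed retinas overlapped with the others (−0.25 ± 0.13, limma, adjusted p = 0.346). PSME1, of the interferon-inducible activator, kept between 40.6 and 46.6 FPKM outside HFD replicate 1 (54.1 FPKM) and differed by −0.13 ± 0.10 with sucrose. With no filter on low values, which takes in PSMB8 and PSMB9, 0 of 39 genes passed limma's adjusted p of 0.05 in any of the 6 comparisons.

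**Figure D5:**
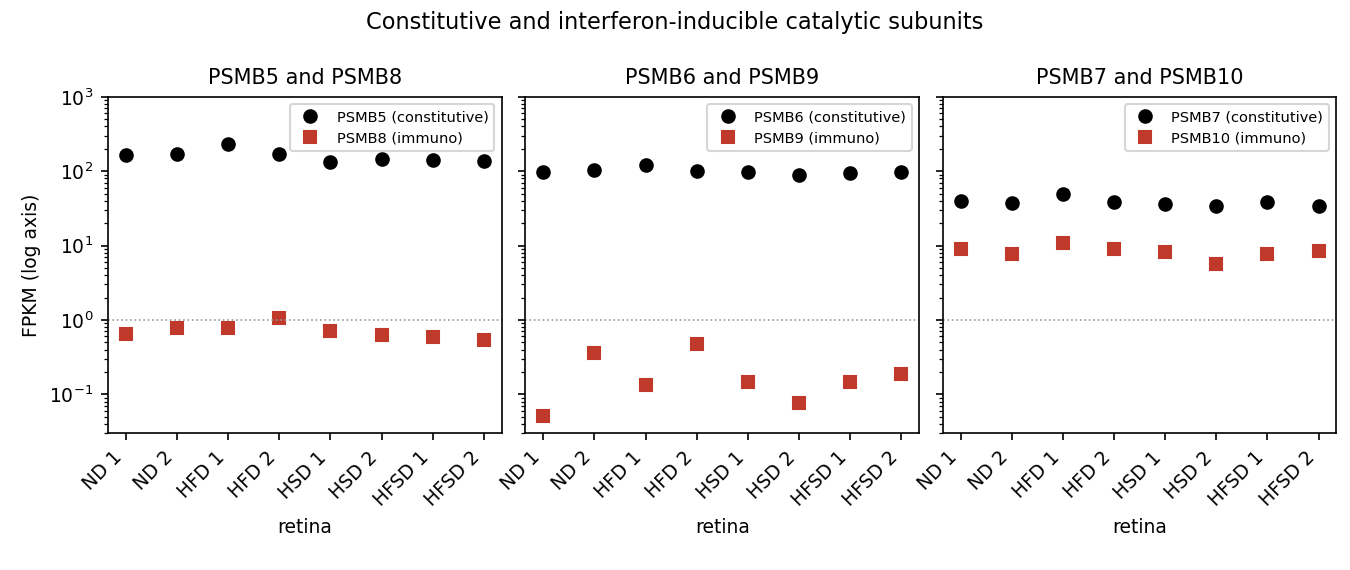
FPKM (log axis) of the 3 constitutive catalytic subunits (black) and the interferon-inducible subunits that replace them (red) in each of the 8 retinas, with the limit of 1 FPKM dotted. PSMB8 and PSMB9 lie at less than 1% of PSMB5 and PSMB6 in every retina, and PSMB10 lies at 16.7% to 24.6% of PSMB7.

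Other genes of the pathway were taken from lists of 42 symbols, of which 35 had a row and 34 were tested. None passed limma's adjusted p of 0.05 in any of the 6 comparisons. With sucrose, 13 were higher and 21 lower. Unadjusted p was under 0.05 for 1 higher and 2 lower of the 34, beside 9.17% and 9.16% of all genes. NFE2L1, the transcription factor that raises proteasome genes when proteasomes are short, stayed between 67.7 and 77.7 FPKM (−0.0039 ± 0.07 with sucrose). HFD replicate 1 was the highest retina for 12 of the 34 genes (35.3%, against 22.3% of all genes tested) and the lowest for 3, ECPAS, DDI2 and NGLY1. POMP, the chaperone that completes the core, had 209 FPKM in HFD replicate 1 and 144 to 166 FPKM elsewhere, the same retina in which most subunits were highest. The ubiquitin gene UBB was also highest there, at 681 FPKM, and lay between 448 and 579 FPKM in the others.

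UCHL5, a deubiquitinase of the cap, was the gene higher with sucrose. It had 17.9 and 13.8 FPKM in ND, 18.5 and 17.4 FPKM in HFD, 19.4 and 19.8 FPKM in HSD and 19.7 and 22.0 FPKM in HFSD, with all sucrose-fed retinas above the others (0.25 ± 0.10, adjusted p = 0.244). Of the 9 antigen-processing and interferon genes tested, 7 were lower with sucrose, where 51.3% of all genes were lower. B2M, the light chain of class I molecules, differed by −0.77 ± 0.23 (adjusted p = 0.169), yet ND replicate 2, at 21.9 FPKM, lay among the sucrose-fed retinas (17.6 to 25.4 FPKM). In the same retinas the microglia and leukocyte genes were lower, and their part in these values was not tested.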

How the data were processed

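Per the labels and the study's methods, total RNA of dissected retinas was made into TruSeq libraries, reads were trimmed and checked with FastQC, and TopHat2 mapped them. Reads with more than 1 place in the genome were dropped, and a custom R script of the authors gave the deposited FPKM values per gene. The genome build and annotation are not given in the sources used here, so genes are named by the symbols of the table, and no coordinates or sequences are given. The table is named for counts but its values are not whole numbers.

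Members and gene lists were chosen with earlier results of these data known. The groups came from sample titles. FPKM was used as log2(FPKM + 1), and 12204 protein-coding genes with FPKM of at least 1 in at least 2 libraries were tested with limma 3.58.1 in R 4.3.3 (mean-variance trend, 1 model of the 4 diets). Contrasts were each diet against ND, sucrose, fat and their interaction. P-values were adjusted over all genes tested by the Benjamini-Hochberg method, and an adjusted p under 0.05 was called. Errors of differences are limma standard errors. Whole fragments were recovered from the steps between FPKM values, with 100% of values above 0 within 0.02 of a whole number. These show counting error only. The depth by which FPKM was divided ran from 15764577 to 22785832. Fragments summed over genes came to 102% of it in HFD replicate 1, 103% in ND replicate 2 and 96.4% to 98.2% elsewhere, so FPKM in those 2 retinas is higher, relative to the others, than division by these fragments would give. Which total the depth represents was not determined. The fit and the recovery of fragments were tested on simulated data. There, with a log2 difference of 0.25, 0% of 59 genes were called in HSD and 0% with sucrose. With 0.50, 0% of 70 genes were called in HSD and 18.57% with sucrose, and with 1.00, 17.14% and 91.43%. The median replicate SD was 0.1421 in those data and 0.1666 in the real data. Fragments were recovered exactly in all libraries for 99.3% of 3000 genes.

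The members named are the catalytic and interferon-inducible subunits, the highest and lowest of each subcomplex, the 2 largest rises and falls in each comparison, those with an unadjusted p under 0.01, and those under the filter. Others are named after their values were seen. Alternatives were a pseudocount of 0.1, no filter, a filter in all 8 libraries, median scaling, voom on recovered fragments scaled by their total, a replicate block, the 2 groups compared alone, and leaving out each library. Scaling to equal FPKM sums and counts of separated groups without HFD replicate 1 were added after the data were seen.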

Additional observations from a re-analysis of the deposited data

How the results depend on the processing

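No member passed an adjusted p of 0.05 under any of the 93 alternative fits of a comparison, and none passed the fold limits under any of 21. Every single member with an unadjusted p under 0.05 kept its direction in all 185 alternative fits. The medians over the members were less stable. Leaving out an HFD retina gave medians between −0.0036 and 0.246 for HFD against ND, −0.225 and 0.0410 for the interaction, −0.194 and −0.0575 for sucrose, and 0.0199 and 0.133 for fat. Leaving out ND replicate 2 took the median of HSD from −0.0656 to −0.0315 and that of HFSD from −0.0528 to −0.0099. The medians of HFD against ND and of the interaction changed sign without HFD replicate 1. Without HFD replicate 1, the members wholly lower in HFD than in ND numbered 6 in place of 0, since 1 retina is then compared. With FPKM scaled to the same sum in each library, members wholly apart from ND were 12 higher and 1 lower in HFD (9.05% and 17.2% of all genes), 8 higher and 6 lower in HSD, and 8 higher and 7 lower in HFSD. In that scaling 1 was higher and 3 were lower in all sucrose-fed retinas, and 0 were higher in all fat-fed ones.

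Replicates of different diets shared only a number, since the correlations of their deviations lay between −0.165 and 0.081. With the replicate block 0 members were called. In this balanced design the block cannot move a difference, so the median with sucrose is −0.116 by construction.

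The recovered depths limit the rarest members, PSMB8, PSMB9 and PSMB11, to at most 36 fragments. With 2 retinas per diet, a missed threshold does not show equal levels.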
